A study of Mus musculus with 80 samples.

Results

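Adenine base editors aimed at a splice site can also convert adenines that lie next to the targeted adenine on its intronic side, and these intronic bystander adenines of *Ptbp1* are described here. *Ptbp1* encodes polypyrimidine tract binding protein 1, an RNA-binding protein that represses the inclusion of many alternative exons. The members are alleles, each a row of an allele table with its read count, that read guanine at a reference adenine of the protospacer upstream of the targeted adenine. Of 11389 allele rows in the tables, 810 met this rule, and they held 12714 of 343154 reads. Edited samples contributed 791 of these rows with 12689 reads, and controls contributed 19 rows with 25 reads.

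The data come from Hepa1-6, a mouse hepatoma line (Hepa cells), transfected with an sgRNA and a base editor, with deep sequencing of the amplified site 5 d later. The 4 editors join the deaminase of ABEmax or of ABE8e to *Sp*Cas or to *Sp*G (*Sp*Cas-ABEmax, *Sp*G-ABEmax, *Sp*Cas-ABE8e, *Sp*G-ABE8e), and control cells received the sgRNA alone. Per the labels, all groups received 400 ng of DNA with 0.5 µl Lipofectamine. The Hepa cell part of the series used here has 80 samples in 27 groups for 7 sgRNAs, and 4 of these sgRNAs have intronic bystander adenines. At these 4 sites there are 48 samples in 16 groups of 3, of which 36 received an editor and 12 are controls. The exon 1 donor and the exon 8 donor were edited with all 4 editors, and the exon 7 acceptor and the exon 9 donor with the *Sp*G editors only. The paper describes the datapoints of these editing rates as independent experiments, whereas the labels give only a replicate number.

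An adenine base editor holds a deaminase that acts on single-stranded DNA and a Cas9 nickase that opens the protospacer. The deaminase converts adenine to inosine, which is read as guanine. The deaminase of ABE8e is an evolved, faster form of that in ABEmax. *Sp*Cas requires an NGG motif (PAM) after the protospacer, whereas *Sp*G accepts NGN. An intron begins with the bases GT at the splice donor and ends with AG at the splice acceptor, and the next bases of the intron belong to the donor consensus that pairs with U1 snRNA. At a donor site the sgRNA binds so that the targeted adenine pairs with the thymine of GT, and an A-to-G change on the sgRNA strand is a T-to-C change in the gene.

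The protospacers of the 4 sites carry the finding and are printed 5′ to 3′ on the sgRNA strand, with the intronic bystander adenines and the targeted adenine, always the last of the capitals, in upper case. Positions are counted from 1 at the 5′ end, 20 is next to the PAM, and a change is given as the base, its position and the base read.

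exon 1 donor: ActtAcccgtccatggcaca

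exon 7 acceptor: cccAcAgtccctggatggcc

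exon 8 donor: AAtAcctgcggcctgaggga

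exon 9 donor: AcAtAcctcagggttcagat

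The windows of 40 bases around them matched chromosome 10 of the mouse genome build GRCm39 once each, and other chromosomes were not searched. The protospacers lie at chr10:79690542-79690561 (minus strand), chr10:79695608-79695627 (plus strand), chr10:79696014-79696033 (minus strand) and chr10:79696790-79696809 (minus strand). The PAMs are CGG at the exon 1 donor, AGA at the exon 7 acceptor, TGG at the exon 8 donor and TGC at the exon 9 donor. The targeted adenine is position 5 at exons 1 and 9, 4 at exon 8 and 6 at the exon 7 acceptor. The protospacers of the exon 3 acceptor, the exon 3 donor and the exon 7 donor hold 0 adenines upstream of the target and have no members.

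There are thus 6 intronic bystander adenines. The exon 1 donor has 1, at position 1 (chr10, 79690561), which pairs with base 6 of intron 1. The exon 7 acceptor has 1, at position 4 (chr10, 79695611), which lies on the gene strand itself, 4 bases before exon 7 and 2 before the targeted adenine. The exon 8 donor has position 1 (chr10, 79696033) and position 2 (chr10, 79696032), which pair with bases 5 and 4 of intron 8. The exon 9 donor has position 1 (chr10, 79696809) and position 3 (chr10, 79696807), which pair with bases 6 and 4 of intron 9. In the GENCODE M39 annotation all 6 lie in an intron in every *Ptbp1* transcript that spans them, between 21 and 24 of 30 transcripts, and in 0 transcripts are they exonic.

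On the gene strand the intron of exon 1 begins gtaagt and becomes gtaagC with A1G. That of exon 8 begins gtattc, which A1G turns into gtatCc and A2G into gtaCtc. That of exon 9 begins gtatgt, which A1G turns into gtatgC and A3G into gtaCgt. The intron before exon 7 ends in ccccacag, and A4G makes it ccccGcag. The capitals mark the changed base, and each of these changes by itself leaves the GT or AG dinucleotide as it was.

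Read depth at these sites ranged from 599 to 8012 reads per sample, with a median of 3606. The exon 1 donor was the most shallow, at 599 to 3644 reads per sample. A sample with 0 reads of a change allows a share of up to 3 reads of its total, which is 0.198% at 1516 reads and 0.0673% at 4459 reads. Intervals and such limits cover counting error only, because the reads carry no molecular identifiers.

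In control cells guanine at an intronic bystander adenine was rare. Across 18 combinations of control sample and adenine, 7 had 0 reads with guanine and the highest share was 0.176%. That highest value belonged to A1G in control replicate 3 of the exon 9 donor, with 10 of 5678 reads (95% Wilson interval 0.0957% to 0.324%), against 1 read in each of the other controls of this site. This sample also had 11 reads with the target edit, 0 of them on the same read as A1G. It had 17 reads with cytosine at the targeted adenine, against 2 in each of the other controls of this site. Its allele counts differed from those of both (chi-square test, p = 5.94e-86 and 2.79e-88). Cytosine or thymine at the same adenines made up 9 reads in controls and 141 reads in edited samples, at no more than 0.228% in any sample, against 12998 counts of guanine in edited samples.

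At the exon 8 donor A2G reached 20.5 ± 0.249% (means ± s.d., n = 3) with *Sp*Cas-ABE8e, with 20.5%, 20.2% and 20.7% in the 3 samples. *Sp*Cas-ABEmax gave 2.42%, 2.51% and 2.45%. *Sp*G-ABE8e gave 4.64%, 4.18% and 4.76%, and *Sp*G-ABEmax 0.645%, 1.01% and 0.659%. The 4 editors did not overlap, and all of their samples were above the controls, which had 1 read each. Guanine was also read at position 3, a thymine, in 0.822 ± 0.239% of reads with *Sp*Cas-ABEmax and 0.848 ± 0.113% with *Sp*Cas-ABE8e. It was in 0.763 ± 0.116% with *Sp*G-ABEmax and 0.793 ± 0.306% with *Sp*G-ABE8e, against 0.0971 ± 0.00995% in controls (n = 3 each). The A2G values of *Sp*G-ABEmax overlapped this level. The controls may therefore understate the guanine background of edited samples here, which was not tested.

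The neighbouring adenine at position 1 of the same protospacer was edited less with every editor. A1G was found in 2.53%, 2.26% and 2.12% of reads with *Sp*Cas-ABE8e. It was found in 0.445%, 0.326% and 0.544% with *Sp*Cas-ABEmax and in 0.433%, 0.253% and 0.762% with *Sp*G-ABE8e. The *Sp*G-ABEmax samples held it in 0.224%, 0.316% and 0.330% of reads. Only *Sp*Cas-ABE8e stood clear of the other editors at this adenine, and the values of the other 3 editors overlapped. With these 3 editors mean A1G was below the mean share of guanine at the thymine of position 3 given above.

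At the exon 9 donor A3G had the largest share of all members, 25.5%, 24.7% and 26.0% of reads with *Sp*G-ABE8e. With *Sp*G-ABEmax the same change was in 0.815%, 0.634% and 0.601%, although 57.8 ± 2.82% of reads (n = 3) carried the target edit A5G there, compared with 73.0 ± 1.60% for *Sp*G-ABE8e (n = 3). The control samples had 1, 0 and 0 reads with A3G.

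A1G at the exon 9 donor stayed below 1% in all samples. *Sp*G-ABE8e gave 0.581%, 0.429% and 0.657%, and *Sp*G-ABEmax 0.244%, 0.307% and 0.131%. The *Sp*G-ABE8e samples were all above the *Sp*G-ABEmax samples, whereas *Sp*G-ABEmax replicate 3 was below control replicate 3. That control is the one whose allele counts differed from those of the other controls.

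At the exon 7 acceptor A4G was nearly as frequent as the targeted edit A6G. *Sp*G-ABE8e gave 17.2%, 14.8% and 9.90% A4G against 17.8%, 15.2% and 10.8% A6G in the same samples. Both edits were lowest in replicate 3. *Sp*G-ABEmax gave 3 of 7086, 4 of 2591 and 10 of 4576 reads with A4G, which overlapped the controls, with 5, 2 and 0 reads.

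At the exon 1 donor A1G was most frequent with *Sp*Cas-ABEmax, with 70 of 3038, 11 of 599 and 16 of 1185 reads, or 2.30%, 1.84% and 1.35%. *Sp*Cas-ABE8e had 2 of 1415, 8 of 1880 and 9 of 3644 reads, or 0.141%, 0.426% and 0.247%. *Sp*G-ABE8e had 2, 3 and 6 reads and *Sp*G-ABEmax 1, 2 and 1. *Sp*Cas-ABEmax was thus above all other editors here, and *Sp*Cas-ABE8e and *Sp*G-ABE8e overlapped.

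By group, the edited samples were all above the controls in 16 of 18 combinations of editor and intronic adenine. The exceptions were A4G at the exon 7 acceptor and A1G at the exon 9 donor, both with *Sp*G-ABEmax. Over all adenines of the 7 protospacers other than the targets, intronic or exonic, 58.3% of combinations had every edited sample above every control. The share of reads with any intronic bystander edit in edited samples exceeded that in controls by 7.09 percentage points, averaged over the 4 sites (p = 0.0089, two-sided permutation test within sgRNA, 100000 resamples). By site the difference was 0.595 points at the exon 1 donor, 7.02 at the exon 7 acceptor, 7.53 at the exon 8 donor and 13.2 at the exon 9 donor. No combination tested singly can pass the threshold, because 3 samples against 3 allow no exact permutation p below 0.1, which becomes 0.112 after Benjamini-Hochberg adjustment over the 18.

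The order of the adenines could be compared across all sites for the *Sp*G editors. With *Sp*G-ABE8e it ran from A3G at exon 9 (25.4 ± 0.657%) to A4G at the exon 7 acceptor (13.98 ± 3.72%), A2G at exon 8 (4.53 ± 0.308%), A1G at exon 9 (0.555 ± 0.116%), A1G at exon 8 (0.483 ± 0.258%) and A1G at exon 1 (0.258 ± 0.198%), each with n = 3. The 3 adenines at positions 2 to 4 were separated from each other and from the rest, whereas the 3 at position 1 overlapped. With *Sp*G-ABEmax all 6 were below 1% on average, and A2G at exon 8 (0.772 ± 0.207%, n = 3) overlapped A3G at exon 9 (0.683 ± 0.115%, n = 3).

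Adenines with the same neighbours could differ in share. The adenine of A4G at the exon 7 acceptor and that of A1G at the exon 9 donor share the context CAC, the edited adenine in the middle, and differed with *Sp*G-ABE8e as 13.98% against 0.555%. The adenine of A3G at exon 9 has the context CAT and that of A2G at exon 8 AAT. At position 1 the contexts were GAC at exon 1, GAA at exon 8 and CAC at exon 9. None of the 6 has thymine on its 5′ side, whereas the targeted adenines of the 3 donors all have the context TAC and that of the exon 7 acceptor CAG. Context, position, distance to the target and site change together among 6 adenines, so their parts cannot be told apart.

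The distance to the target gave another grouping. A4G at the exon 7 acceptor, A2G at exon 8 and A3G at exon 9 each lie 2 bases before the target, A1G at exon 8 lies 3 before it, and A1G at exons 1 and 9 lies 4 before it. With *Sp*G-ABE8e the adenines 2 bases away were all above those farther away. This did not hold with *Sp*G-ABEmax, where A4G at the exon 7 acceptor averaged 0.138%. There A1G averaged 0.290% at exon 8 and 0.227% at exon 9.

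The deaminases were compared within site and Cas9 variant. ABE8e was higher than ABEmax in 8 of 9 comparisons of an adenine by their means, and in 6 of them all ABE8e samples were above all ABEmax samples. Over all non-target adenines of the 7 protospacers, 52.8% of such comparisons had every ABE8e sample higher and 5.56% every ABE8e sample lower. The share of reads with an intronic bystander was 9.95 percentage points higher with ABE8e, averaged over 6 pairs of groups (p = 3e-05, two-sided permutation test within sgRNA and Cas9 variant, 100000 resamples). Without the exon 1 donor, a choice made after seeing the data, the difference was 15.3 points.

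The size of this difference varied among the adenines. The ratio of the ABE8e mean to the ABEmax mean was 101 for A4G at the exon 7 acceptor, 37.2 for A3G at exon 9, and 8.33 with *Sp*Cas and 5.87 with *Sp*G for A2G at exon 8. For A1G it was 5.25 with *Sp*Cas and 1.66 with *Sp*G at exon 8, and 2.44 with *Sp*G at exon 9. The denominator for A4G rests on 17 reads in 3 *Sp*G-ABEmax samples that overlapped their controls, and the ratio was 66.4 without replicate 1 and 163 without replicate 3. For A1G with *Sp*G at exon 8 the *Sp*G-ABE8e samples overlapped those of *Sp*G-ABEmax, with a difference of 0.193 ± 0.152 points (SE) and exact permutation p = 0.3.

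The exon 1 donor went the other way with *Sp*Cas. A1G was 1.56 points lower with *Sp*Cas-ABE8e than with *Sp*Cas-ABEmax there (means 0.271% and 1.83%, SE 0.288), every *Sp*Cas-ABE8e sample being below every *Sp*Cas-ABEmax sample, although A5G was in 44.5 ± 3.28% of reads with *Sp*Cas-ABE8e and in 34.0 ± 4.33% with *Sp*Cas-ABEmax (n = 3 each). With *Sp*G at the same adenine ABE8e exceeded ABEmax by 0.170 points (SE 0.116), with overlapping samples. The exonic adenines of the same protospacer, of which position 13 is the nearest, had the same order within each Cas9 variant. For *Sp*Cas their share of reads was 1.81 ± 0.502% with ABEmax and 0.267 ± 0.170% with ABE8e, and for *Sp*G 0.141 ± 0.124% with ABEmax and 2.11 ± 0.392% with ABE8e (n = 3 each). The bystander shares of the *Sp*Cas libraries at this site thus had the reverse of the order seen elsewhere, while the target edit did not, and whether the labels of these libraries apply was not tested.

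*Sp*Cas and *Sp*G were compared at the exon 1 and exon 8 donors, whose NGG PAMs both accept. *Sp*Cas was higher by the means in 6 of 6 comparisons of an adenine and in 4 of them without overlap, against 58.3% of all non-target adenines compared in this way. The share of reads with an intronic bystander was 5.09 points higher with *Sp*Cas (p = 0.00016, two-sided permutation test within sgRNA and deaminase, 100000 resamples), and 9.31 points at the exon 8 donor alone, a choice made after seeing the data (p = 0.00552, permutation test). The latter p is close to 0.005, the smallest that the 400 arrangements of these samples allow. A2G at exon 8 was 4.52 times as frequent with *Sp*Cas-ABE8e as with *Sp*G-ABE8e and 3.19 times as frequent with *Sp*Cas-ABEmax as with *Sp*G-ABEmax. As a ratio, though not in percentage points, the target edit A4G differed less. It was in 88.7 ± 0.902% against 67.6 ± 1.29% for ABE8e and 76.5 ± 2.09% against 47.0 ± 4.71% for ABEmax (n = 3 each). For A1G at exon 1 with ABE8e the difference was 0.0133 ± 0.141 points (SE), and it changed sign with replicate 1 or replicate 2 left out.

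Most member reads also carried the target edit. The alleles that make up most of them are printed with every changed base in upper case.

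exon 1 donor A1G A5G: GcttGcccgtccatggcaca

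exon 7 acceptor A4G A6G: cccGcGgtccctggatggcc

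exon 7 acceptor A4G: cccGcagtccctggatggcc

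exon 8 donor A2G A4G: aGtGcctgcggcctgaggga

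exon 8 donor A1G A2G A4G: GGtGcctgcggcctgaggga

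exon 8 donor A1G A4G: GatGcctgcggcctgaggga

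exon 9 donor A3G A5G: acGtGcctcagggttcagat

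exon 9 donor A3G A5G A10G: acGtGcctcGgggttcagat

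exon 9 donor A3G: acGtacctcagggttcagat

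The allele A2G A4G at the exon 8 donor was in 1225, 1151 and 1379 reads of the *Sp*Cas-ABE8e samples, or 18.6 ± 0.325% of all reads (n = 3). A1G A2G A4G followed with 92, 71 and 74 reads and A1G A4G with 69, 64 and 74. A2G and A1G without any other change had 0 and 1 reads in these samples. With *Sp*Cas-ABEmax A2G A4G was in 119, 154 and 154 reads and A1G A4G in 19, 21 and 32, and here A2G alone was found too, in 12, 15 and 11 reads. The *Sp*G editors gave the same leading allele, A2G A4G, in 105, 93 and 108 reads for ABE8e and in 19, 21 and 14 for ABEmax. It was followed by A1G A4G, with 5, 3 and 13 reads for ABE8e and 5, 6 and 6 for ABEmax. The next allele was A1G A2G A4G for ABE8e (5, 3 and 7 reads) and A2G alone for ABEmax (3, 8 and 4 reads).

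At the exon 9 donor A3G A5G was in 1190, 1313 and 1235 reads of the *Sp*G-ABE8e samples, or 22.2 ± 0.449% of all reads (n = 3), and A3G A5G A10G in 116, 130 and 129. A1G A3G A5G was next with 13, 10 and 15 reads. A3G alone was in 5, 3 and 0 reads. With *Sp*G-ABEmax the allele A3G A5G was in 21, 18 and 16 reads, A3G alone in 18, 10 and 5, and A1G A5G in 8, 8 and 3.

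At the exon 7 acceptor A4G A6G was in 714, 852 and 659 reads of the *Sp*G-ABE8e samples and A4G alone in 159, 175 and 127. The latter allele leaves the AG of the acceptor in place, and it was 2.40 ± 0.769% of all reads (n = 3). A4G A6G A15G came next with 0, 2 and 0 reads. With *Sp*G-ABEmax A4G alone had 3, 2 and 5 reads and A4G A6G 0, 2 and 5, and the controls had 4, 1 and 0 and 1, 1 and 0. At the exon 1 donor A1G A5G was in 64, 10 and 16 reads with *Sp*Cas-ABEmax and in 2, 8 and 6 with *Sp*Cas-ABE8e. A1G A5G A13G was in 5, 0 and 0 reads and A1G alone in 1, 1 and 0 with *Sp*Cas-ABEmax, and A1G alone in 0, 0 and 3 with *Sp*Cas-ABE8e. *Sp*G-ABE8e had 2, 3 and 4 reads of A1G A5G, 1 read of A1G A5G A13G and 1 read with an insertion and a deletion. *Sp*G-ABEmax had 1, 1 and 0 reads of A1G alone, 1 of A1G A5G and 1 of A1G T10G. In the 12 edited groups the 3 most frequent alleles held between 85.6% and 100% of member reads.

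The link to the target was measured as the share of target-edited reads with an intronic bystander minus that share among the other reads of the same sample. It averaged 14.2 percentage points over the 36 edited samples (p = 1e-05, the smallest value that 100000 resamples allow, two-sided permutation of signs within samples) and was positive in 32 of them. These samples are replicates of 12 groups at 4 sites, so the p-value reflects agreement among samples, not among sites. All 18 ABE8e samples were positive, and 14 of 18 ABEmax samples. Without the exon 7 acceptor the mean was 7.59 points. In a split chosen after seeing the data, ABE8e samples averaged 23.8 points and ABEmax samples 4.52, and the latter fell to 1.77 points (p = 0.00052, permutation of signs) without the exon 7 acceptor, where the ABEmax samples had only 3, 15 and 12 reads with the target edit.

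At the exon 8 donor 24.6%, 24.0% and 24.3% of target-edited reads held an intronic bystander with *Sp*Cas-ABE8e, against 0.123%, 0.143% and 0.133% of the other reads, which is 1 read in each sample. With *Sp*Cas-ABEmax the shares were 3.22%, 3.34% and 3.68% against 1.43%, 1.27% and 0.806%. *Sp*G-ABE8e gave 7.25%, 6.43% and 7.55% against 0.118%, 0% and 0.123%, and *Sp*G-ABEmax 1.35%, 1.96% and 1.81% against 0.349%, 0.592% and 0.382%. Among reads without the target edit the ABEmax samples were therefore all above the ABE8e samples, the reverse of the order among target-edited reads.

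At the exon 9 donor the shares with *Sp*G-ABE8e were 34.5%, 34.7% and 35.8% of target-edited reads against 0.439%, 0.631% and 0.341% of the others. With *Sp*G-ABEmax they were 1.04%, 1.03% and 0.916% against 1.09%, 0.780% and 0.487%. The link with *Sp*G-ABEmax was thus 0.208 ± 0.246 points (n = 3), negative in replicate 1.

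At the exon 7 acceptor 79.0%, 80.8% and 76.6% of target-edited reads carried A4G with *Sp*G-ABE8e, against 3.81%, 3.04% and 1.78% of the others. With *Sp*G-ABEmax 0 of 3, 2 of 15 and 5 of 12 target-edited reads carried it, against 0.0424%, 0.0776% and 0.110% of the others. In the controls of this site 1 of 1, 1 of 3 and 0 of 1 target-edited reads carried A4G. The few *Sp*G-ABEmax reads therefore cannot be told apart from the controls. With *Sp*G-ABE8e the share among target-edited reads varied little although A4G over all reads ranged from 9.90% to 17.2%. At the exon 1 donor the shares with *Sp*Cas-ABEmax were 5.83%, 5.24% and 4.35% against 0.0539%, 0.245% and 0%. With *Sp*Cas-ABE8e they were 0.327%, 0.882% and 0.391% against 0%, 0% and 0.142%. *Sp*G-ABE8e gave 0.546%, 0.802% and 1.23% against 0%, 0% and 0.119%. *Sp*G-ABEmax, with 1, 2 and 1 member reads, gave 0%, 0% and 0.498% against 0.0779%, 0.134% and 0%, so that the link was negative in replicates 1 and 2.

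Read the other way, the share of bystander-carrying reads that also held the target edit separated the deaminases at exon 8. For A2G with *Sp*Cas it was 99.98 ± 0.0384% for ABE8e and 90.9 ± 2.47% for ABEmax (n = 3 each). With *Sp*G it was 99.7 ± 0.462% for ABE8e and 77.4 ± 5.38% for ABEmax (n = 3 each), again without overlap. For A3G at exon 9 it was 99.7 ± 0.266% for *Sp*G-ABE8e, compared with 64.5 ± 9.46% for *Sp*G-ABEmax (n = 3 each). The latter rests on 40, 31 and 23 reads, in which 55.0%, 64.5% and 73.9% had A5G, compared with 60.9%, 55.4% and 57.1% of all reads of these samples. For A4G at the exon 7 acceptor it was 82.8 ± 1.12% with *Sp*G-ABE8e (n = 3).

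The deaminases were also compared over target-edited reads only. The share with an intronic bystander was 19.5 points higher with ABE8e than with ABEmax, averaged over 6 pairs of groups (p = 8e-05, two-sided permutation test within sgRNA and Cas9 variant, 100000 resamples). The difference was 60.5 points at the exon 7 acceptor, where the ABEmax mean of 18.3 ± 21.3% (n = 3) rests on the few target-edited reads given above, 34.0 at exon 9, 20.9 with *Sp*Cas and 5.37 with *Sp*G at exon 8, and 0.693 with *Sp*G at exon 1. With *Sp*Cas at exon 1 it had the opposite sign, at -4.61 points. Without the exon 7 acceptor the average was 11.3 points.

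At the exon 8 donor A1G was more frequent on target-edited reads with A2G than on those without it in all samples of the ABE8e editors, a description for which no test was run. Among target-edited reads with A2G, 6.74%, 5.71% and 4.99% carried A1G with *Sp*Cas-ABE8e, compared with 1.68%, 1.59% and 1.58% of target-edited reads without A2G. *Sp*G-ABE8e gave 4.24%, 3.03% and 5.65% compared with 0.317%, 0.202% and 0.769%, on 15 reads with all 3 edits. With *Sp*Cas-ABEmax 3 of 440 reads with A2G and A4G had A1G, and 74 of 14570 with A4G and no A2G did, or 0.688 ± 0.634% and 0.506 ± 0.127% (n = 3), which overlapped. With *Sp*G-ABEmax 2 of 56 reads with A2G and A4G had A1G, both in replicate 2, compared with 19 of 4428 without A2G.

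At the exon 9 donor 1.11%, 0.941% and 1.33% of target-edited reads with A3G also held A1G with *Sp*G-ABE8e, compared with 0.573%, 0.353% and 0.502% of those without A3G. The exonic edit A10G went with A3G as well, in 8.99%, 9.21% and 9.55% of target-edited reads with A3G and in 6.08%, 4.59% and 5.52% of those without. With *Sp*G-ABEmax 0 of 59 reads with A3G and A5G had A10G, and 49 of 7826 without A3G did. Exonic A16G at exon 8 was in 20 of 4128 target-edited reads with A2G and in 74 of 13767 without it for *Sp*Cas-ABE8e, or 0.485 ± 0.151% and 0.532 ± 0.163% (n = 3), which overlapped.

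Compared with the exonic adenines of the same protospacers, intronic bystanders were more frequent in the edited samples of every site but the exon 1 donor. The share of reads with any intronic bystander exceeded that with any exonic one by 5.22 points over the 36 edited samples (p = 9e-05, two-sided permutation of signs within samples, 100000 resamples), and by 8.06 points without the exon 1 donor, left out after seeing the data. These samples are replicates of 12 groups at 4 sites, so the p-value reflects agreement among samples and not a rule for intronic adenines. The intronic share was higher in 28 of 36 samples, and the remaining samples were all at the exon 1 donor. At the exon 9 donor with *Sp*G-ABE8e the shares were 25.7 ± 0.716% and 5.04 ± 0.401%, and at the exon 7 acceptor 13.98 ± 3.72% and 0.0202 ± 0.00813% (n = 3 each). At the exon 1 donor with *Sp*G-ABE8e the order was the reverse, with 0.258 ± 0.198% intronic and 2.11 ± 0.392% exonic (n = 3). With the other editors intronic minus exonic was near 0 there. It was 0.0153 ± 0.463 points with *Sp*Cas-ABEmax, 0.0047 ± 0.0995 with *Sp*Cas-ABE8e and -0.0529 ± 0.153 with *Sp*G-ABEmax (n = 3 each). The exonic adenines lie at positions 10 to 20, so position and side of the splice junction cannot be told apart here.

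Deletions and insertions were rare on member reads. Of 12689 member reads in edited samples 16 had an indel within the window, 0.126%, compared with 120 of 60056 target-edited reads without an intronic bystander, 0.1998%. A member read must hold its edited adenine, so a deletion over that adenine cannot be on it, and the low count is partly set by the rule for members. These are sums over samples, given as a description, and the order differed among groups. At the exon 8 donor it was 0.529% against 0.228% with *Sp*Cas-ABEmax, on 3 member reads with an indel, and 0.0919% against 0.347% with *Sp*Cas-ABE8e.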

How the data were processed

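Genomic DNA of Hepa cells was amplified at *Ptbp1* splice sites and sequenced on a MiSeq, and the authors aligned reads to amplicon references with CRISPResso2 (version not given in the sources used here). For each allele in a window of 40 bases the deposited tables give a read count, not normalized, and the percent of the sample's reads. Deposited columns with inserted, deleted and substituted bases are not limited to the window and were not used. PCR duplicates are counted as reads.

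Reads of sgRNAs 1, 3, 6, 7 and 9 were reverse-complemented. The protospacer is bases 11 to 30 of the window, and shares were computed over all reads of a sample without a filter. The members and the comparisons were chosen with earlier results of these data known. All intronic adenines are named, and of member alleles the 3 with the most reads in each site and editor group, or all where there were fewer.

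Tests used the sample as unit (permutations within strata, signs within samples, exact tests of 3 against 3), two-sided, with Benjamini-Hochberg adjustment over 18, 9, 6 or 5 tests. Linked second edits, the share of carriers with the target edit and the tests of differences between effects were added after seeing the data. Windows were matched to chromosome 10 of GRCm39, since the paper names no build for the amplicons, and exon numbers follow ENSMUST00000172282.8. sgRNA 2 covers the exon 3 acceptor and sgRNA 3 the exon 3 donor by their reference sequences.

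Of 48 pairs of replicates 0 had identical tables, and 20 did not differ by a chi-square test of allele counts at a threshold of 0.05, 10 of them controls. Python 3.11.15, numpy 2.4.6 and scipy 1.17.1 were used. The counting of shares was checked on 48 simulated tables of 5000 reads, and in 48 it returned the shares of the drawn counts. These tables held ready-made protospacers, so the reading of the windows was not checked. For the comparison of ABE8e with ABEmax, 5.5% of 400 simulated sets without a difference gave p below 0.05, and 100% of those shifted by 2 SD. The simulated pairs of groups had equal variance and the same shift, unlike the data, so the 100% is no estimate of power here. The alternatives tried are alleles of at least 0.2%, no reads with indels, only A or G at the counted adenines, a log2 scale of percent plus 0.1, a replicate block, and leaving out replicates or sites.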

Additional observations from a re-analysis of the deposited data

Results flagged for a closer look

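At the exon 1 donor the mean difference in A1G between the deaminases had opposite signs with the Cas9 variants. ABE8e minus ABEmax was -1.56 percentage points with *Sp*Cas and 0.170 with *Sp*G, a difference of -1.73 points (two-sided exact permutation test over 400 arrangements, p = 0.01, Benjamini-Hochberg adjusted 0.025 over 5 such tests). The arrangements exchange deaminase labels within each Cas9 variant, so this p refers to no deaminase effect with either variant, not to equal effects. All 3 *Sp*Cas-ABE8e samples were below the *Sp*Cas-ABEmax samples. The *Sp*Cas-ABE8e samples had 2, 8 and 9 reads with A1G and the *Sp*G-ABEmax samples 1, 2 and 1, so that these shares rest on few reads. At the exon 8 donor, where the mean differences had the same sign, they differed by 14.3 points for A2G (exact permutation p = 0.1). For A1G there they differed by 1.67 points (exact permutation p = 0.09).

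The mean difference in A1G with *Sp*Cas also had opposite signs at the exon 1 and exon 8 donors. ABE8e minus ABEmax was -1.56 points at the exon 1 donor and 1.86 points at the exon 8 donor, a difference of -3.42 points (exact permutation p = 0.005, the smallest that 400 arrangements allow, adjusted 0.025), with the samples of the deaminases apart at both sites. With *Sp*G the corresponding difference was -0.0227 points (exact permutation p = 0.875). Labels were exchanged within each site here, so these p-values likewise do not test equal effects. The exonic share at the exon 1 donor with *Sp*Cas was likewise lower for ABE8e (0.267 ± 0.170%, n = 3) than for ABEmax (1.81 ± 0.502%, n = 3), while the target edit was higher. Whether the labels of these *Sp*Cas libraries apply, or another cause, was not tested.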

How the results depend on the processing

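All 6 main results kept their direction and stayed past the threshold of 0.05 with alleles of at least 0.2%, without reads with indels and with any replicate number left out, and, where applied, with only A or G at the adenines, on the log2 scale, without the sites named above and with agreeing replicates counted once, a choice made after seeing the data. With replicates left out the edited minus control difference ranged from 6.87 to 7.31 points, ABE8e minus ABEmax from 9.71 to 10.1, *Sp*Cas minus *Sp*G from 5.01 to 5.20, the link from 13.2 to 14.999, the share of target-edited reads from 18.0 to 21.5 and intronic minus exonic from 5.08 to 5.38. With the replicate number as a block the permutation p was 0.0218 for edited minus control (7.09 points), 0.00063 for ABE8e minus ABEmax (9.95), 0.00199 for *Sp*Cas minus *Sp*G (5.09) and 0.00126 for target-edited reads (19.5). The replicate numbers gave no sign of pairing. Of same-numbered pairs of samples from different groups, 33 of 78 had a correlation of deviations over 0.1, compared with 76 of 156 differently numbered pairs. The median correlations were -0.0894 and 0.0664. The link and the intronic minus exonic difference are taken within samples and need no block.

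For A1G at exon 1 with ABE8e, *Sp*Cas minus *Sp*G ranged from -0.0964 to 0.137 points with a replicate left out, being -0.000591 without replicate 1. Dropping alleles under 0.2% moved 12 of the 18 means by adenine and editor by more than 1 SD, to 0% for A1G at exons 1, 8 and 9 and A4G at the exon 7 acceptor with *Sp*G-ABEmax. Of the means that moved, A2G at exon 8 fell from 4.53% to 4.12% with *Sp*G-ABE8e and from 2.46% to 2.00% with *Sp*Cas-ABEmax. Of the ratios of means given above, that of A4G at the exon 7 acceptor moved by over 1.5 times with a replicate left out. In the most shallow sample, with 599 reads, a count of 0 would allow 0.501%.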
